A study of Mus musculus with 9 samples.

Results

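The integrin genes of leukocytes described here are 10 of the 13708 genes in the deposited table: the alpha chains *Itga4*, *Itga5*, *Itga6*, *Itga9*, *Itgal*, *Itgam* and *Itgax* and the beta chains *Itgb1*, *Itgb2* and *Itgb7*. They were chosen by symbol, through the Ensembl identifier of each row, and all 10 had a row and passed the filter on low values. Earlier results of the same samples were known when the list was drawn up, and it was named for *Itga4*. For that gene the genotype difference is therefore a description without a test. The other members carry p-values of the fit over all genes, which do not allow for this way of choosing them. Gene expression was measured by bulk RNA-seq in macrophages sorted from livers of mouse embryos at E15.5, with 5 samples of Mrc1Cre Xpr1fl/fl embryos and 4 of Xpr1fl/fl embryos, which served as controls. XPR1 is a phosphate exporter, and the question was how its loss in fetal liver macrophages alters their transcripts. Both genotypes were homozygous for an *Xpr1* allele with loxP sites around an exon. The Mrc1Cre samples also carried a Cre recombinase with eYFP, driven by the *Mrc1* (CD206) locus, which is active in fetal liver macrophages and also in sinusoidal endothelium. The gate was CD45+, F4/80+ and CD11b low, and it took in cells with high and with low Tim4. Nothing in the labels says that the samples of a genotype came from separate embryos, so every p-value below measures the spread between these samples only.

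Integrins are membrane receptors made of an alpha and a beta chain, and a chain reaches the cell surface in quantity only with its partner. *Itgb2* pairs with *Itgal* (LFA-1), *Itgam* (CD11b, the complement receptor Mac-1) and *Itgax* (CD11c), and these receptors bind ICAM proteins, fibrinogen and complement fragments. *Itgb1* pairs with *Itga4*, *Itga5*, *Itga6* and *Itga9*, which bind VCAM1 and fibronectin, fibronectin, laminins, and VCAM1 and other matrix proteins, respectively. In erythroblastic islands, VCAM1 on the central macrophage holds erythroblasts through their *Itga4*-*Itgb1* receptor.

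The values are normalized counts, that is, gene counts that the authors normalized with DESeq2. Whether the same factor was applied to every gene of a sample was not established. The values summed to between 26942921 and 28309443 per sample, so they carry no absolute depth. *Xpr1* was at 1162 ± 84.9 (SD, n = 5) in Mrc1Cre samples and at 1982 ± 205 (SD, n = 4) in controls, and the groups did not overlap. *Mrc1*, whose locus carries the Cre construct, was at 7574 ± 1266 and 24693 ± 2674. The macrophage markers (8 of 8 measured) summed to between 193659 and 214511 in Mrc1Cre samples and between 186927 and 219501 in controls, so the markers of the labelled cell type were present in every sample. The column names carry 3 dates, and these run with the genotype: the earliest is shared by Mrc1Cre sample 5 and control samples 1 to 3, control sample 4 has its own, and Mrc1Cre samples 1 to 4 share the latest. What the dates stand for is not given in the sources used here.

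The genotype differences were read against the whole table, since 43.1% of the 13594 genes tested passed the threshold (limma on log2(normalized count + 1), adjusted p under 0.05), 21.5% higher and 21.6% lower in Mrc1Cre samples. Of the 9 members with a test, 7 were higher, 1 was lower (*Itga6*) and 1 did not pass (*Itgb7*). The list was drawn up with earlier results of these samples known. This count and those that follow therefore describe the members and are no test of them against all genes. *Itga4* was left out of the following counts. The median log2 fold change of the 9 other members was 0.42 (0.0050 over all genes). In 6 of the 9 every Mrc1Cre sample lay above every control (16.6% of all genes tested), in 0 every Mrc1Cre sample lay below every control (17.5% of all genes tested), and *Itga6*, *Itgam* and *Itgb7* overlapped. Over all genes 49.9% of the calls were higher. Scaling each sample to its 75th percentile gave 35.0% and shifted the median of all genes to −0.074, and the same numbers of members passed in each direction.

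**Figure D1:**
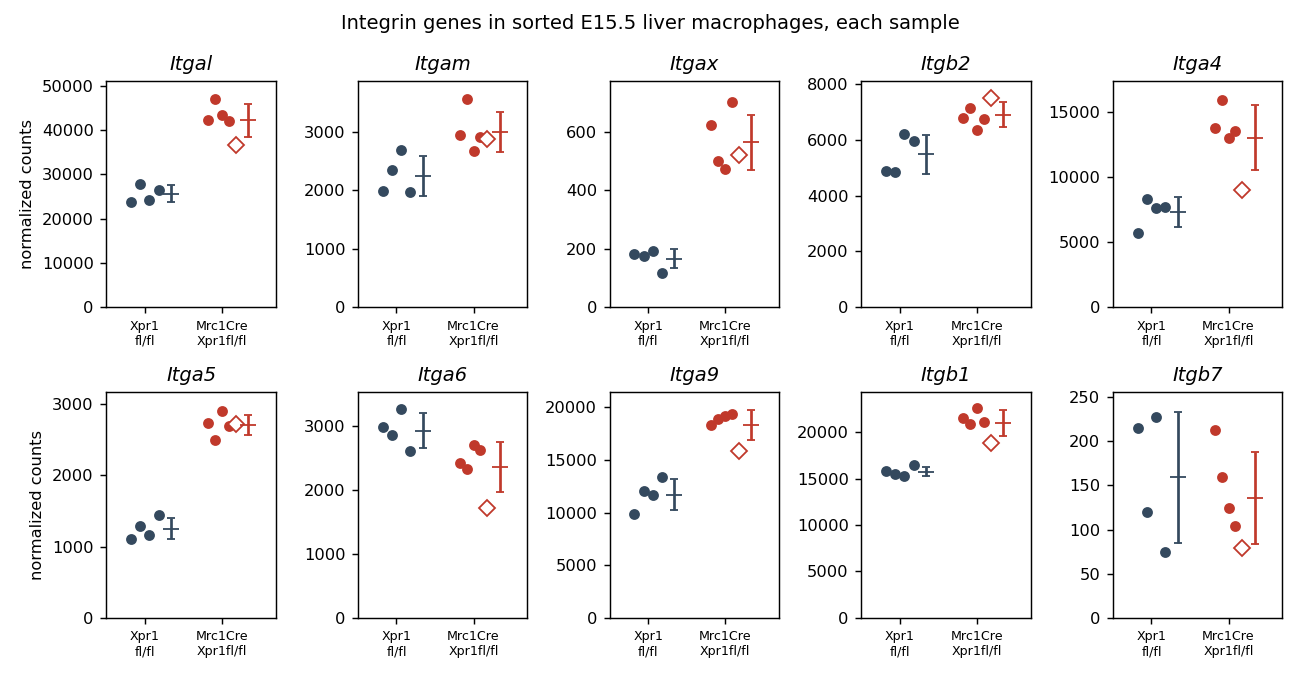
Normalized counts (y axes, from 0) of the 10 integrin genes in each sample, controls on the left and Mrc1Cre Xpr1fl/fl on the right of each panel; bars are mean ± SD, and the open diamond is Mrc1Cre sample 5, which shares its date with control samples 1 to 3. The Mrc1Cre samples lie above the controls in 7 panels, while the groups overlap for *Itga6*, *Itgam* and *Itgb7*.

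Among the *Itgb2* group, *Itgal* was the most abundant alpha chain of the members per length. Its normalized counts were 42277, 47058, 43403, 42020.5 and 36646 in Mrc1Cre samples 1 to 5 and 23692, 27779, 24268 and 26556 in control samples 1 to 4. The lowest Mrc1Cre sample, number 5, lay above the highest control. The means differed 1.65-fold (log2 fold change 0.72, SE 0.08, limma adjusted p = 4.9e-05). *Itgax*, the CD11c chain familiar from dendritic cells and some tissue macrophages, was low but rose most among the members. Its values were 624, 501, 473, 702 and 523 in Mrc1Cre samples and 181, 174, 192 and 117 in controls, a 3.40-fold difference of means (log2 fold change 1.77, SE 0.16, limma adjusted p = 2.4e-05). The lowest Mrc1Cre sample was well above the highest control. Of 5 dendritic cell markers, 3 had a row (*Cd209a* and *Ccr7* had none), with 2 lower and 0 higher. They summed to 119 to 149 in Mrc1Cre samples and 304 to 470.2 in controls. Their part in the *Itgax* difference was not tested.

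*Itgam* encodes CD11b, a protein on which the cells were sorted (CD11b low), as they were on CD45 (*Ptprc*) and F4/80 (*Adgre1*). It had 2949, 3564, 2671.5, 2917 and 2869 normalized counts in Mrc1Cre samples and 1985, 2337, 2684 and 1972 in controls. Mrc1Cre sample 3 lay just below control sample 3, so the groups overlapped at 1 point, and the other Mrc1Cre samples lay above all controls. The log2 fold change was 0.42 (SE 0.10, limma adjusted p = 0.0071). *Gm49368* overlaps it on the same strand and averaged 17.8 normalized counts. *Itgb2*, the common beta chain, was at 6799.6, 7163.5, 6347, 6741 and 7519 in Mrc1Cre samples and at 4893, 4832, 6207 and 5981 in controls, without overlap but with a narrow gap between Mrc1Cre sample 3 and control sample 3. Its log2 fold change was 0.34 (SE 0.08, limma adjusted p = 0.0069). The remaining alpha partner, *Itgad*, was expressed at 61.8 ± 12.3 (SD, n = 5) and 42.8 ± 29.99 (SD, n = 4) and did not pass (log2 fold change 0.71, SE 0.35, limma adjusted p = 0.12).

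*Itgal*, *Itgam*, *Itgax* and *Itgad* lie on the plus strand of the same chromosome. In GRCm39, *Itgal* spans 126895432 to 126934320 of chromosome 7, *Itgam* 127661808 to 127717753 and *Itgax* 127728668 to 127749829. *Itgam* and *Itgax* are separated by 10914 bp and *Itgax* and *Itgad* by 3718 bp, while 727487 bp lie between *Itgal* and *Itgam*. Because the 3 members there were all higher in Mrc1Cre samples, the 250 bp before the start of the canonical transcript of each are shown from the GRCm39 genome, 5′ to 3′, with the letters of the PU.1 core motif (GAGGAA, or TTCCTC on the other strand) in capitals. PU.1 is the main transcription factor of the myeloid lineage and is known for acting on the *Itgam* promoter.

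*Itgal*, chr7:126895182-126895431, plus strand: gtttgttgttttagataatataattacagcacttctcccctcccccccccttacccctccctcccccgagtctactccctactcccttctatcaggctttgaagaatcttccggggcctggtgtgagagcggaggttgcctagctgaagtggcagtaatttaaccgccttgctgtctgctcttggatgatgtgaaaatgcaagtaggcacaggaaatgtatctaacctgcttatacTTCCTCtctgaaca
*Itgam*, chr7:127661558-127661807, plus strand: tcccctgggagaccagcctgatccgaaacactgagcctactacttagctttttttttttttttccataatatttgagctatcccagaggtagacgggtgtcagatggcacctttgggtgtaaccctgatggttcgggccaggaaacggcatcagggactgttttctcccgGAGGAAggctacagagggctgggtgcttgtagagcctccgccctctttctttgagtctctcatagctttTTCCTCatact
*Itgax*, chr7:127728418-127728667, plus strand: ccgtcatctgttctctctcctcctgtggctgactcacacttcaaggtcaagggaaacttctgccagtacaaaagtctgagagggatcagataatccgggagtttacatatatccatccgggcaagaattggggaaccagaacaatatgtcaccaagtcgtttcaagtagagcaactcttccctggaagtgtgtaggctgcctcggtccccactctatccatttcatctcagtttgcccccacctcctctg

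The letters GAGGAA occurred on either strand once before *Itgal*, at 2 positions before *Itgam* and not before *Itgax*. Among the 10 members they occurred in 3 (*Itga5*, *Itgal* and *Itgam*), against 22.9% of the 21770 windows of the same length before the canonical transcripts of protein-coding genes. The windows of *Itga5* and *Itga6* lie partly or wholly inside the annotated span of the gene, because other transcripts start further upstream. The GC box letters GGGCGG occurred in 5 members (36.3% of windows), and neither TATAAA (11.9%) nor the core of the interferon-stimulated response element (3.32%) occurred in any. Such a match describes letters in a window and is no evidence of binding.

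Among the partners of *Itgb1*, *Itga4* is the gene for which the list was named. The 250 bp before the start of its canonical transcript on chromosome 2 hold none of the motifs searched, and are given here for comparison with the *Itgal*, *Itgam* and *Itgax* windows.

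*Itga4*, chr2:79085410-79085659, plus strand: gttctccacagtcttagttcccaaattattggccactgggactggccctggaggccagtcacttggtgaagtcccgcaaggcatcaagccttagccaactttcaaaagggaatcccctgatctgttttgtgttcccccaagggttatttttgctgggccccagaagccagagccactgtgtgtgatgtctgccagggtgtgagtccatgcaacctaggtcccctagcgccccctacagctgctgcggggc

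*Itga4* spans 79085660 to 79163467 of chromosome 2 on the plus strand. Its normalized counts were 13778, 15923, 13031, 13549 and 9055 in Mrc1Cre samples 1 to 5 and 5698, 8358, 7653 and 7700.4 in control samples 1 to 4. Every Mrc1Cre sample lay above every control, but sample 5 was only a little above control sample 2, and the other Mrc1Cre samples stood clear of it. The means differed 1.78-fold, and the log2 fold change was 0.82 (SE 0.15), a value given as a description. The gene overlaps *Cerkl* on the opposite strand, which averaged 15.4 normalized counts.

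*Itga5*, the fibronectin receptor chain, changed most among the *Itgb1* partners. It was at 2737, 2504, 2907, 2690.4 and 2725 normalized counts in Mrc1Cre samples and at 1112, 1284, 1169 and 1446 in controls. The groups were far apart relative to their spread, and Mrc1Cre sample 5 did not stand apart. The means differed 2.17-fold (log2 fold change 1.12, SE 0.08, limma adjusted p = 5.4e-06). *Itga9*, which shares VCAM1 and other ligands with *Itga4*, had 18367, 18939, 19212, 19362 and 15881 normalized counts in Mrc1Cre samples and 9853, 12028, 11631 and 13377 in controls. Here Mrc1Cre sample 5 was the lowest of its group and still above all controls. The log2 fold change was 0.65 (SE 0.09, limma adjusted p = 0.00019).

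*Itgb1*, the beta chain of this group, had 21545, 20883, 22636, 21152 and 18879.8 normalized counts in Mrc1Cre samples and 15798, 15482, 15330.4 and 16498 in controls. The groups did not overlap, and the log2 fold change was 0.41 (SE 0.06, limma adjusted p = 0.00024). *Itga6*, a laminin receptor chain, went the other way. Its values were 2415.5, 2324, 2703, 2619.8 and 1707 in Mrc1Cre samples and 2978, 2856, 3254 and 2610.3 in controls. Mrc1Cre samples 3 and 4 overlapped control sample 4, and Mrc1Cre sample 5 was lowest of all 9 samples. The log2 fold change was −0.33 (SE 0.12, limma adjusted p = 0.047), and this call was lost in 7 of the 21 alternatives, among them leaving out any of Mrc1Cre samples 1 and 2 and control samples 1 to 3, where the adjusted p reached 0.13. *Itgb7*, the gut-homing partner of *Itga4*, was low among the members at 213, 159, 124, 104 and 78.5 normalized counts in Mrc1Cre samples and 216, 120.2, 228 and 74.4 in controls. The groups covered the same range, and the log2 fold change was −0.18 (SE 0.35, limma adjusted p = 0.72).

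**Figure D2:**
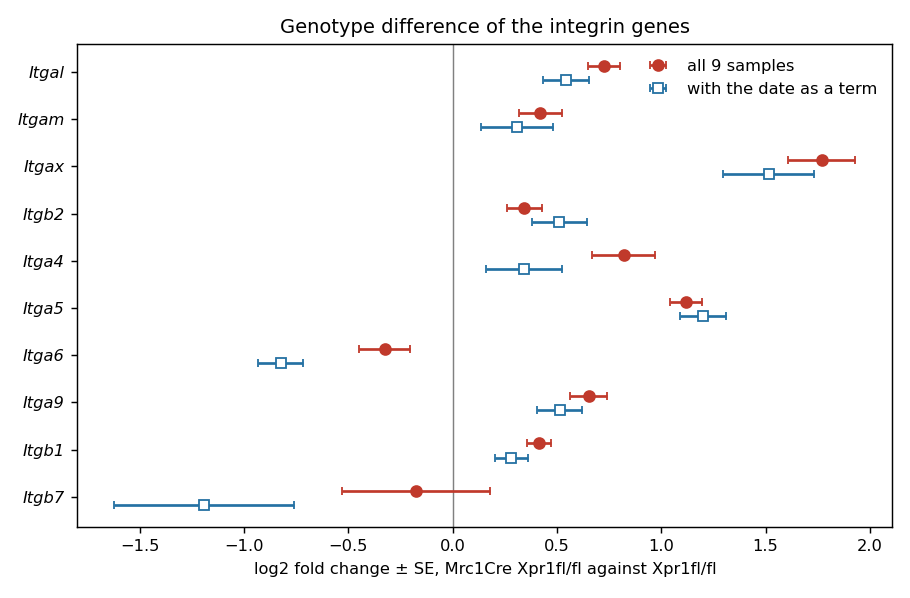
Log2 fold change ± SE (x axis, Mrc1Cre Xpr1fl/fl against Xpr1fl/fl) of the 10 integrin genes in the fit over all 9 samples (filled circles) and with that date entered as a term (open squares). The values of 8 genes lie above 0 in both fits and those of *Itga6* and *Itgb7* lie below 0 in both, while *Itga4* falls from 0.82 to 0.34.

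Once the date was entered as a term, the genotype difference was that of Mrc1Cre sample 5 against control samples 1 to 3, the only date with both genotypes. It thus rests on 1 Mrc1Cre sample, whose spread was assumed to be that of the other samples, and 8.78% of all genes passed the threshold (4.24% higher, 4.54% lower). All 8 members with a log2 fold change above 0 over all samples were also higher in Mrc1Cre sample 5 than in any control of its date, *Itga4* and *Itgam* included, and *Itga6* and *Itgb7* were below all of them. *Itga4* then had a log2 difference of 0.34 (9055 against 5698 to 8358), less than the 0.82 over all samples. The log2 differences were 1.20 for *Itga5*, 1.52 for *Itgax*, 0.54 for *Itgal*, 0.51 for *Itga9*, 0.51 for *Itgb2* and −0.82 for *Itga6*, which passed the threshold (limma adjusted p from 0.00074 to 0.042). *Itgam* (0.31, limma adjusted p = 0.30) and *Itgb1* (0.28, limma adjusted p = 0.053) did not pass, nor did *Itgb7* (−1.19, limma adjusted p = 0.11).

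To compare the abundance of chains, levels were divided by the exon length of each gene. In controls, normalized counts per kb of exon were 3887 ± 292 for *Itgal*, 2643 ± 86.9 for *Itgb1*, 1689 ± 221 for *Itgb2* and 1517 ± 188 for *Itga9* (SD, n = 4). *Itga4* (439 ± 68.7) and *Itgam* (439 ± 66.1) came next, then *Itga6* (257 ± 23.5) and *Itga5* (235 ± 27.7), and *Itgb7* (54.9 ± 25.6) and *Itgax* (34.2 ± 6.91) were lowest. Neighbours in this order overlapped in the controls for *Itgb2* and *Itga9*, *Itga4* and *Itgam*, *Itga6* and *Itga5*, and *Itgb7* and *Itgax*, so their order is not resolved. The length of the longest transcript gave the same order. In Mrc1Cre samples the level per kb of *Itga5* was 509.7 ± 27.0 and that of *Itga6* was 207 ± 34.5 (SD, n = 5), so these 2 chains, at like levels in controls, stood apart.

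The alpha chains of a beta chain can be set against it within each sample, where a scaling shared by all genes of the sample would cancel. Normalization factors that differ between genes would not cancel, nor would a trend with transcript length, described below. The *Itgb1* sum also includes *Itga4*, the gene for which the list was named. The summed level per kb of *Itga4*, *Itga5*, *Itga6* and *Itga9* was 0.927 ± 0.093 times that of *Itgb1* in controls and 1.10 ± 0.06 times in Mrc1Cre samples (SD, n = 4 and 5), a log2 difference of 0.25 without overlap. For *Itgal*, *Itgam* and *Itgax* against *Itgb2*, the ratio was 2.62 ± 0.41 in controls and 3.36 ± 0.39 in Mrc1Cre samples (log2 difference 0.36), and the groups overlapped, since Mrc1Cre sample 5 had 2.69 and control sample 2 had 3.17. For *Itga4* against *Itgb7* it was 10.1 ± 6.16 and 17.9 ± 4.23, with overlap. Transcript levels of the alpha partners thus exceeded that of *Itgb2* in all samples.

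Within the alpha chains of *Itgb1*, the share of *Itga6* was 10.6% ± 1.79 in controls and 5.31% ± 0.511 in Mrc1Cre samples, and the share of *Itga5* was 9.62% ± 0.553 and 13.3% ± 1.56 (SD, n = 4 and 5), both without overlap. *Itga9* made up the most, with 61.9% and 61.4%, and *Itga4* 17.9% and 20.03%, both with overlap. Among the chains of *Itgb2*, *Itgal* made up 89.1% in controls and 90.1% in Mrc1Cre samples, *Itgam* 10.1% and 8.22%, and *Itgax* 0.790% and 1.64%, the last without overlap. These ratios are descriptions without a test. The share of a chain also falls when the other chains rise, and the values of *Itga6* itself overlapped between the genotypes.

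**Figure D3:**
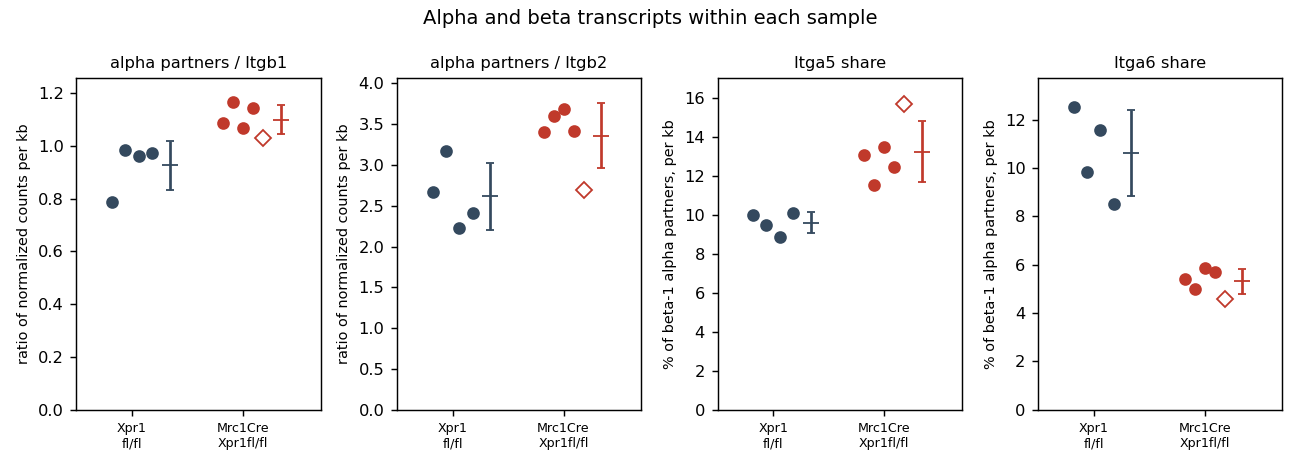
Ratio of summed alpha chain to beta chain levels per kb of exon within each sample (left panels, for *Itgb1* and *Itgb2*) and share of *Itga5* and *Itga6* among the alpha chains of *Itgb1* (right panels, percent), with mean ± SD beside the points and Mrc1Cre sample 5 as an open diamond. The shares of *Itga5* (higher) and *Itga6* (lower) and the *Itgb1* ratio separate the genotypes, and the *Itgb2* ratio overlaps between 2.69 and 3.17.

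The genes whose values ran most closely with *Itga4* over the 9 samples were *Snrnp200* (Pearson r = 0.994), *Ubr2* (0.991), *Smg1* (0.991), *Wdfy4* (0.991) and *Fam120a* (0.990), of 11399 genes ranked. Such values are not rare, since 7.73% of these genes had r above 0.9 and the samples share genotype and date. With each genotype's mean removed it was 0.968 to 0.989 for these 5 genes, which were picked as the top of the list on the same samples. Among the members, r over the 9 samples was 0.95 for *Itgal* and *Itga9*, 0.90 for *Itgb1*, 0.86 for *Itga5*, 0.84 for *Itgam*, 0.82 for *Itgax*, 0.68 for *Itgb2*, −0.04 for *Itgb7* and −0.34 for *Itga6*, and these values include the genotype difference itself. The order changed once each genotype's mean was removed: r was then 0.90 for *Itgal*, 0.81 for *Itga9*, 0.54 for *Itga6*, 0.51 for *Itgb1* and 0.50 for *Itgam*, and 0.17 for *Itga5* and *Itgb7*, −0.03 for *Itgb2* and −0.04 for *Itgax*. *Itgal* and *Itga9* were thus the members nearest to *Itga4* by both measures.

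The 5 genes most like *Itga4* had long transcripts, with a median longest transcript of 10158 bp against 4376 bp over the genes ranked. Genes with a longest transcript of at least 9000 bp (628 genes) had a median log2 fold change of 0.23, against 0.017 in the 10764 shorter ones. Within each genotype the same samples were low for both: *Itga4* was 0.51 below its genotype mean on the log2 scale in Mrc1Cre sample 5 and 0.35 below it in control sample 1, and the long genes had median deviations of −0.17 and −0.13 there. The part of this trend in the *Itga4* difference was not tested directly. With a smooth trend on transcript length removed from each sample, an alternative chosen after these genes were seen, the log2 fold change of *Itga4* was 0.65, and 7 members were higher and 1 was lower as before.

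**Figure D4:**
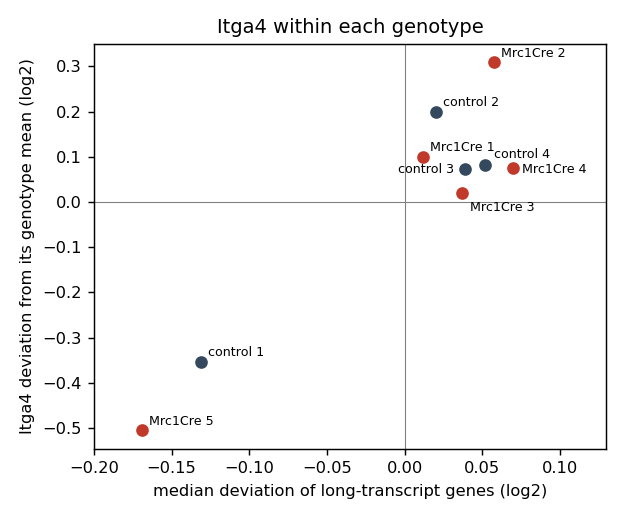
Deviation of *Itga4* from its genotype mean (y axis, log2) against the median deviation of 628 genes with a longest transcript of at least 9000 bp (x axis, log2) in each of the 9 samples, Mrc1Cre Xpr1fl/fl in red and controls in blue. Mrc1Cre sample 5 and control sample 1 lie low on both axes. The other 7 samples are positive on both, with *Itga4* deviations from 0.02 to 0.31.

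Among the other integrin subunits, more genes were lower than higher. Of 16 listed, 12 had a row and 10 were tested: 2 were higher, 5 were lower and 3 did not pass, with a median log2 fold change of −0.32 (over all genes, 21.5% were higher and 21.6% lower). Those higher were *Itgav*, a vitronectin receptor chain (5667 ± 860.1 in Mrc1Cre samples, 4363 ± 163 in controls, log2 fold change 0.36, limma adjusted p = 0.016), and *Itga10*, a collagen receptor chain at 115 ± 26.7 and 62.4 ± 24.2 (0.91, limma adjusted p = 0.010). Those lower were *Itga1* (26.6 ± 4.48 and 85.0 ± 25.9, −1.61, limma adjusted p = 0.00031), *Itgb3* (143 ± 69.4 and 308 ± 88.0, −1.21, limma adjusted p = 0.015), *Itgb5* (9845 ± 115 and 11016 ± 982, −0.16, limma adjusted p = 0.048), and, below the mean of 50 normalized counts at which genes were named and added because the count is small, *Itga2* (−1.56, limma adjusted p = 0.0052) and *Itga3* (−1.98, limma adjusted p = 0.013). The *Itgb3* call was lost without control sample 1 (limma adjusted p = 0.051), and the *Itgb5* call was lost in 12 of the 21 alternatives, among them leaving out any sample but control sample 2. *Itga1* pairs with *Itgb1*, and *Itgb3* pairs with *Itgav* and is also the platelet beta chain. Megakaryocyte markers (9 of 9 measured, 4 of them lower and 0 higher) summed to 768 to 1169 in Mrc1Cre samples and 2339 to 2850 in controls, and their part in the *Itgb3* difference was not tested. With date in the fit, 0 of the 10 passed in either direction (8.78% over all genes, a share under which fewer than 1 of 10 would pass), and *Itgav* had a log2 difference of −0.068.

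Among the ligands and counter-receptors of integrins, more genes were lower than higher. Of 32 listed, 25 had a row and were tested: 4 were higher, 14 were lower and 7 did not pass, with a median log2 fold change of −0.90, against 21.5% higher and 21.6% lower over all genes. *Vcam1*, the counter-receptor of *Itga4*-*Itgb1* and *Itga9*-*Itgb1*, fell from 52996 ± 8747 in controls to 20016 ± 5300 in Mrc1Cre samples (log2 fold change −1.43, SE 0.19, limma adjusted p = 0.00017). *Icam4*, an erythroid ligand of several integrins, fell from 332 ± 37.1 to 78.6 ± 33.3 (−2.16, limma adjusted p = 9.9e-05), *Fn1* (fibronectin) from 1152 ± 362 to 611 ± 60.3 (−0.87, limma adjusted p = 0.0022), *Lamb1* (−1.70) and *Lamb2* (−1.63), both laminin chains, and *Vtn* (vitronectin, −1.18) likewise. Rising were *Icam1* (4201 ± 291 to 6934 ± 360, 0.72, limma adjusted p = 1.3e-05), *Icam2* (298 ± 63.9 to 641 ± 74.5, 1.12, limma adjusted p = 0.00012), *F11r* (0.76) and *Emilin1* (0.22), and *Icam1*, *Icam2* and *F11r* bind *Itgal*-*Itgb2*. *Emilin1* lost its call in 7 alternatives, among them leaving out any of Mrc1Cre samples 1 and 2 and control samples 3 and 4. With date in the fit, the difference of *Vcam1* was −1.16 (limma adjusted p = 0.058), 3 ligands were higher (*Icam1*, *Icam2* and *F11r*) and 2 were lower (*Icam4* and *Nid1*, the latter named after its values were seen). *Vcam1* was thus lower where *Itga4*, *Itga9* and *Itgb1* were higher.

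Markers of other cells of the fetal liver were measured beside the ligands. Erythroid markers (14 of 15 with a row, all 14 lower) summed to 91806 to 306006 in Mrc1Cre samples and 401825 to 644491 in controls, hepatocyte markers (7 of 7 lower) to 34330 to 44262 and 57744 to 98786, and endothelial markers (8 of 10 lower) to 2187 to 2601 and 2854 to 4482. Mrc1Cre sample 5, on which the comparison within a date rests, had the highest erythroid (306006), hepatocyte (44262), megakaryocyte (1169), granulocyte (18282) and dendritic (149) sums of its genotype and the lowest macrophage (193659), monocyte (7235) and lymphoid (1704) sums. In a bulk sample, fewer cells of such a type and less RNA per cell cannot be told apart, and the part of these markers in the results of the ligands and of *Itga4* was not tested. Hepatocytes and endothelium lack CD45, on which the cells were sorted, and transcripts of their markers were still present in every sample. How those transcripts came into the samples was not tested. As background, *Icam4* is erythroid, *Fn1* and *Vtn* are made by hepatocytes, and erythroid precursors also express *Itga4*. Monocyte markers (7 measured, 1 higher, 3 lower) summed to 7235 to 10007 and 5396 to 7946, and granulocyte markers (10 measured, 5 lower) to 5101 to 18282 and 9332 to 54944, both overlapping, and lymphoid markers (5 measured, 1 higher, 4 lower) to 1704 to 2010.1 and 1537 to 2089. Macrophage markers themselves included *Ptprc* (CD45), higher by 0.85 on the log2 scale, and *C1qa* and *Aif1*, lower by 0.86 and 0.32.

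**Figure D5:**
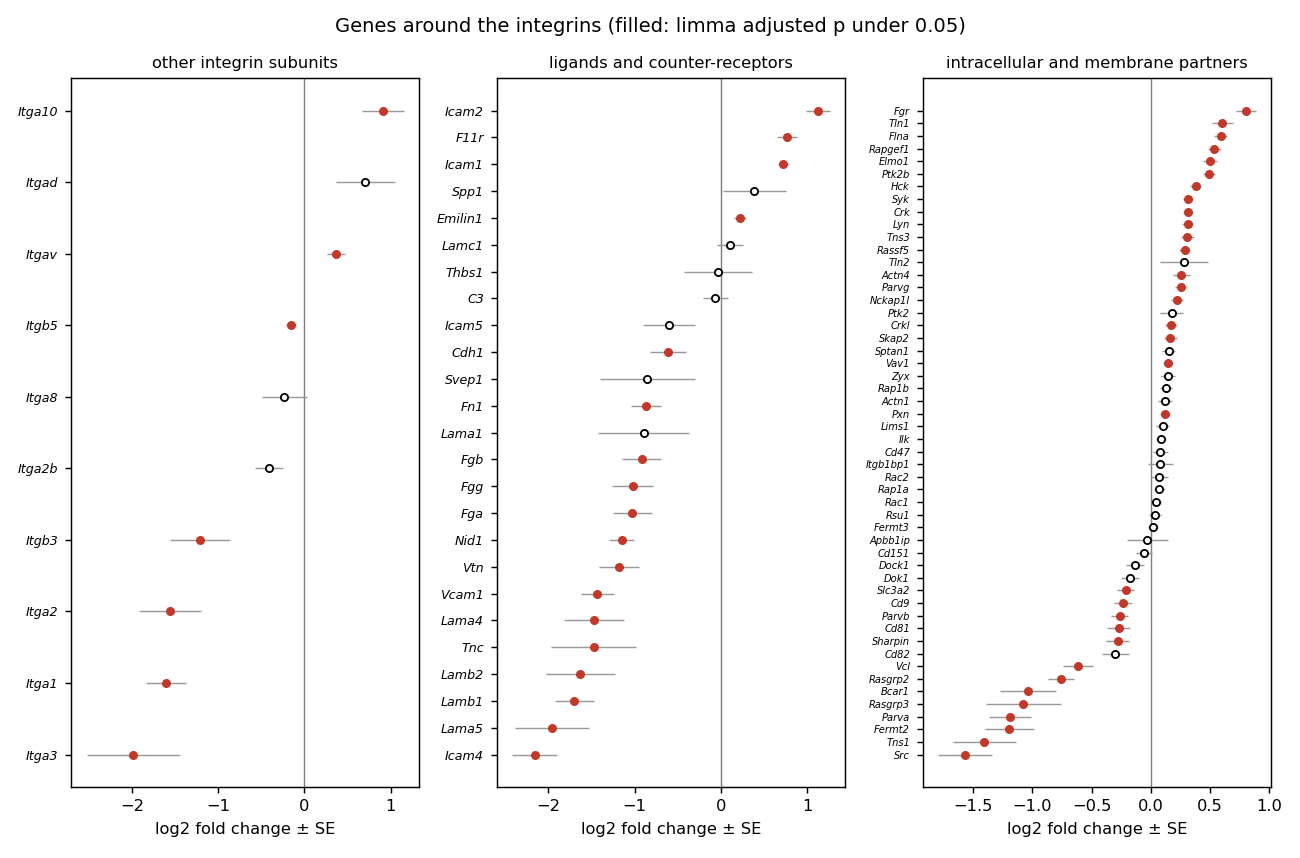
Log2 fold change ± SE (x axes, Mrc1Cre Xpr1fl/fl against Xpr1fl/fl) of 10 other integrin subunits, 25 ligands and counter-receptors, and 52 membrane and intracellular partners, each sorted by value; filled points passed the limma threshold of adjusted p under 0.05. Ligands lie mostly below 0 (14 of 25 lower and passed), while the partners are on both sides (19 higher, 13 lower).

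The genes that couple integrins to the cytoskeleton and to signaling were called in both directions. Of 56 listed, 52 had a row and were tested: 19 were higher, 13 were lower and 20 did not pass, with a median log2 fold change of 0.09 (over all genes, 21.5% were higher and 21.6% lower). *Tln1* (talin-1, which binds beta chain tails and actin) was at 33908 ± 4395 in Mrc1Cre samples and 22132 ± 870.5 in controls (log2 fold change 0.61, limma adjusted p = 0.00041), and *Flna* (filamin A, which also binds beta chain tails) at 43367 ± 948 and 28861 ± 1899 (0.59, limma adjusted p = 2.7e-05). The *Src* family kinase *Fgr* (0.80), the Rap1 exchange factor *Rapgef1* (0.54) and the Rac activator partner *Elmo1* (0.50) were likewise higher, without overlap between the genotypes. *Fermt3*, the kindlin of blood cells, was at 11873 ± 239 and 11695 ± 238 and did not pass (0.02, limma adjusted p = 0.70). The lower genes included *Src* (−1.57), *Tns1* (tensin-1, −1.41), *Fermt2* (kindlin-2, −1.20), *Parva* (alpha-parvin, −1.19) and *Rasgrp3* (a Rap1 and Ras exchange factor, −1.08), the last of which lost its call without control sample 3 (limma adjusted p = 0.056). With date in the fit, 8 of the 52 were higher and 1, *Parva*, was lower (4.24% and 4.54% over all genes).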

How the data were processed

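Per the labels, libraries were made with a stranded mRNA kit from 45 ng of total RNA of sorted macrophages. The authors checked reads with FastQC, quantified them with salmon on a GRCm39 index, imported them with tximport and normalized them with DESeq2. Versions, the strand setting of the counting and the filter on low genes are not given in the sources used here. The deposited signal is gene counts that the authors normalized with DESeq2, for 13708 genes with a smallest mean of 5.79. Whole reads could not be recovered from them, so no count test was run, absolute depth is unknown, and the precision is that of the replicates. At the best spacing found for each sample, 26.0% to 49.7% of values under 10 lay within 5% of a multiple. Chance gives 10% for a fixed spacing and more for the best of many.

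Symbols and lengths were taken from GENCODE release 39 (13698 genes with a symbol). Genes reaching 10 normalized counts in 4 or more samples entered limma 3.58.1 (R 4.3.3, eBayes with trend) on log2(normalized count + 1), and p-values were adjusted by Benjamini-Hochberg over 13594 genes. Fold changes of low genes are understated on that scale. The code was tested on simulated data. The plots used matplotlib 3.10.9 (Python 3.11.15). Levels per kb were divided by the union of exons. Windows of 250 bp before the start of the GENCODE canonical transcript of protein-coding genes were read from the GRCm39 genome. The members and gene lists (other integrins, ligands, partners, and markers of macrophages, erythroid cells, megakaryocytes, endothelium, monocytes, granulocytes, hepatocytes, lymphoid and dendritic cells) were chosen with earlier results of these data known. Genes named are all members, up to 5 higher and 5 lower per list whose mean reached 50 normalized counts, Vcam1, Icam1, Fn1, Tln1, Fermt3, and the 5 genes most like Itga4. Ptprc, C1qa and Aif1, Itga2 and Itga3 were named after their values were seen. Alternatives were other pseudocounts (0.5 and 10), no filter or one at 50 normalized counts, quantile normalization or scaling to the 75th percentile, fits with no trend, robust ones or ones with array weights, the replicate number as a block, the date as a term, and leaving out each sample; removal of a trend with transcript length was added after seeing the data. Columns of no mapped sample numbered 0.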

Additional observations from a re-analysis of the deposited data

Results flagged for a closer look

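In 6 of 76 groups of 4 or 5 samples, 1 sample stood far from the others by Dixon's test, where chance gives about 1 in 20, or 3.8. Mrc1Cre sample 5 was low for Itga9 (15881 normalized counts, the others 18367 to 19362), Itgav (4165, the others 5908 to 6363) and Rapgef1 (4128, the others 4687 to 4772). It was also low in the ratio of Itgb2 alpha partners to Itgb2 (2.69, the others 3.40 to 3.69). This sample shares its date with control samples 1 to 3. Control sample 1 was low in the ratio of Itgb1 alpha partners to Itgb1 (0.788, the others 0.961 to 0.983), and control sample 4 was high for Itga10 (98.5 normalized counts, the others 47.9 to 52.7).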

How the results depend on the processing

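The number of higher members was 7 in each leave-one-out fit and in every other alternative except the date as a term, where it was 5. The number lower, 1, was 0 without a trend and with array weights, and 0 to 1 when a sample was left out. With the date as a term, Itga4 was at 0.34, other integrins had 0 higher and 0 lower, ligands 2 lower, and partners 8 higher and 1 lower. Itgav turned to −0.068 (limma adjusted p = 0.65). All calls fell from 5865 to 1194. A filter of 50 normalized counts, which leaves fewer genes, gave 3 lower other integrins. Leaving out samples gave 2 to 3 higher and 2 to 5 lower other integrins, 3 to 5 and 12 to 14 ligands, 17 to 20 and 9 to 14 partners. The lowest of these for the other integrins, 2, came without control sample 1, and 3 came without control sample 3 or 4. It gave log2 values of 0.70 to 0.95 for Itga4, 0.17 to 0.28 for the Itgb1 ratio and 0.29 to 0.46 for the Itgb2 ratio. Itgb5 lost its call in 12 alternatives, the replicate block included (limma adjusted p = 0.052). Samples with the same replicate number did not deviate together (r −0.05 to 0.10). With the number as a block, which uses replicates 1 to 4 only, 7 members were higher and 1 was lower, other integrins 2 and 5, ligands 6 and 15, and partners 19 and 14. Itga4 was at 0.95 in that fit, which lacks Mrc1Cre sample 5, so no date in it held both genotypes. The cause of these changes was not tested. Absolute depth is unknown, so its part in the precision cannot be given.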
